A study of Arabidopsis thaliana with 12 samples.

Results

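Rubisco is built from a large subunit encoded in the plastid and a small subunit encoded in the nucleus. The small subunit of Arabidopsis thaliana comes from 4 nuclear loci, RBCS1A (AT1G67090), RBCS1B (AT5G38430), RBCS2B (AT5G38420) and RBCS3B (AT5G38410), and Rubisco activase comes from RCA (AT2G39730). These 5 loci were taken by identifier from 27313 loci in the deposited tables and hold 10 of the 32875 coding models listed there. Their transcripts were followed in 12 RNA-seq libraries from leaves of 4-week-old plants. Groups WT_DMSO and WT_latB are Col-0 leaves infiltrated with 0.01% DMSO or with 1 µM latrunculin B, a drug that binds actin monomers and depolymerizes actin filaments. Groups sid2_DMSO and sid2_latB are leaves of the mutant sid2 under the same infiltrations, and each group holds 3 libraries. Replicate numbers used below follow the order of the sample titles within a group and link no libraries between groups. The plants share a 10 h light and 14 h dark cycle at 22 °C, and leaves were frozen 24 h after infiltration. SID2 encodes ICS1, the isochorismate synthase at the start of the main route to salicylic acid; the labels do not name the sid2 allele. Nothing in the labels says that the 3 libraries within a group are from different plants; the p-values therefore measure only the spread between these libraries, which may be technical.

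Small subunits are made in the cytosol as precursors, pass the chloroplast envelope, lose their transit peptide and join large subunits that chaperonins and assembly factors have folded. The finished enzyme fixes carbon dioxide in mesophyll chloroplasts, and its transcripts are among the most abundant of green leaves. Activase is an ATP-driven remodelling protein that pulls inhibitory sugar phosphates out of the Rubisco active site. In Arabidopsis 1 RCA gene gives a longer form, whose tail carries redox-sensitive cysteines, and a shorter form without that tail, by alternative splicing.

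Library totals ran from 14506962 to 22449387 estimated reads. ICS1 was listed at 8.97 to 10.3 TPM (transcript abundance scaled per length and per library) in WT_DMSO, 64.1 to 99.2 in WT_latB, 155 to 158 in sid2_DMSO and 132 to 173 in sid2_latB, so its transcript level does not mark the mutant as low, and the genotype rests on the labels. PR1, a gene induced by salicylic acid, lay between 130 and 9967 TPM in the WT libraries and between 0 and 13.3 TPM in the sid2 libraries. Leaf markers were present: the mesophyll genes (CA1, CA2, LHCB3, LHCB2.1, LHCB2.2) were all detected in every group (CA1 and CA2 are carbonic anhydrases, the others antenna proteins), and the root markers COBL9, CASP1, MYB36 and EXPA7 were at 0 in all 12 libraries.

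The B-type copies are neighbours. RBCS3B, RBCS2B and RBCS1B lie on the minus strand of chromosome 5 (TAIR10.1 annotation) at 15376988 to 15378642, 15380907 to 15382071 and 15383167 to 15385320, within 8333 bases that hold 0 other coding genes. RBCS1A lies alone on chromosome 1 at 25048158 to 25049667, and RCA on chromosome 2 at 16570746 to 16573692, both on the minus strand. Each RBCS reading frame has 3 coding exons. Coding sequences of the B copies were 96.7% to 97.25% identical to each other and 89.93% to 90.11% identical to RBCS1A. Of all words of 31 bases in a copy's coding sequence, 88.89% occurred in no other copy for RBCS1A, but 31.4% for RBCS1B, 35.08% for RBCS2B and 42.83% for RBCS3B. Salmon divides reads that match several copies by an estimation model, so values of single B copies also carry the error of that division, which the SEs below do not include. The stretch of the reading frame with most differences, bases 91 to 150 counted from the A of the start codon, is shown to illustrate how the B copies differ; capitals mark the 8 positions at which the copies are not all alike.
RBCS1B: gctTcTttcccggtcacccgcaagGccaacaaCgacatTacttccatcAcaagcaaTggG
RBCS2B: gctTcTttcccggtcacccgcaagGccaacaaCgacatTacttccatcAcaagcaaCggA
RBCS3B: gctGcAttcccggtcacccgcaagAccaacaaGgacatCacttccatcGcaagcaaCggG
In this window RBCS3B differs from both other copies at 6 of the positions, for example G94T and C129T with the base of RBCS3B first, and RBCS1B and RBCS2B differ from each other at the other two, of 15 such positions in the whole frame. Across the whole frame of 546 bases, 25 positions differed among the B copies.

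The small subunit copies took a large share of these leaf transcriptomes. Together they held 6.17% ± 0.333 (SD, n = 3) of all TPM in WT_DMSO, 3.17% ± 0.530 in WT_latB, 5.15% ± 0.326 in sid2_DMSO and 6.0% ± 0.659 in sid2_latB. RBCS1A, the most abundant copy, was the transcript with the highest TPM of all loci in the 3 WT_DMSO libraries. Its levels were 37622, 39119 and 34266 TPM in WT_DMSO, 18844, 21782 and 15775 in WT_latB, 28581, 27391 and 32585 in sid2_DMSO, and 34190, 35590 and 28629 in sid2_latB. The WT_latB libraries lay below every other library, and WT_DMSO lay above sid2_DMSO without overlap.

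RBCS3B was the second copy in abundance. It stood at 17200, 17591 and 16627 TPM in WT_DMSO, 8489, 9512 and 6343 in WT_latB, 12964, 13104 and 13947 in sid2_DMSO, and 16970, 17822 and 15445 in sid2_latB. WT_latB was again lowest without overlap, and on this scale both sid2_DMSO and WT_latB lay below WT_DMSO.

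RBCS2B had another order of groups. Its TPM values were 4376, 5484 and 5404 in WT_DMSO, 3722, 3374 and 2471 in WT_latB, 6506, 7325 and 6270 in sid2_DMSO, and 6898, 8015 and 6725 in sid2_latB. All 6 sid2 libraries lay above all 6 WT libraries, and WT_latB lay below WT_DMSO. RBCS1B, the least abundant copy, was at 2650, 2798 and 2032 TPM in WT_DMSO, 1730, 1758 and 1393 in WT_latB, 2149, 1341 and 2457 in sid2_DMSO, and 2852, 4659 and 2193 in sid2_latB. It was also the most variable: replicate 2 was the lowest of the sid2_DMSO libraries and the highest of the sid2_latB libraries.

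RCA was listed at 5577, 6035 and 6101 TPM in WT_DMSO, 4548, 4334 and 3655 in WT_latB, 6852, 6314 and 7367 in sid2_DMSO, and 6989, 6765 and 6838 in sid2_latB. WT_latB was lowest and both sid2 groups lay above WT_DMSO, with no overlap in either case. By TPM, which is scaled per effective length, the order of levels was RBCS1A, RBCS3B, then RCA and RBCS2B, then RBCS1B. RCA and RBCS2B overlapped in WT_latB, sid2_DMSO and sid2_latB, while the other neighbours in that order did not overlap within any group.

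**Figure D1:**
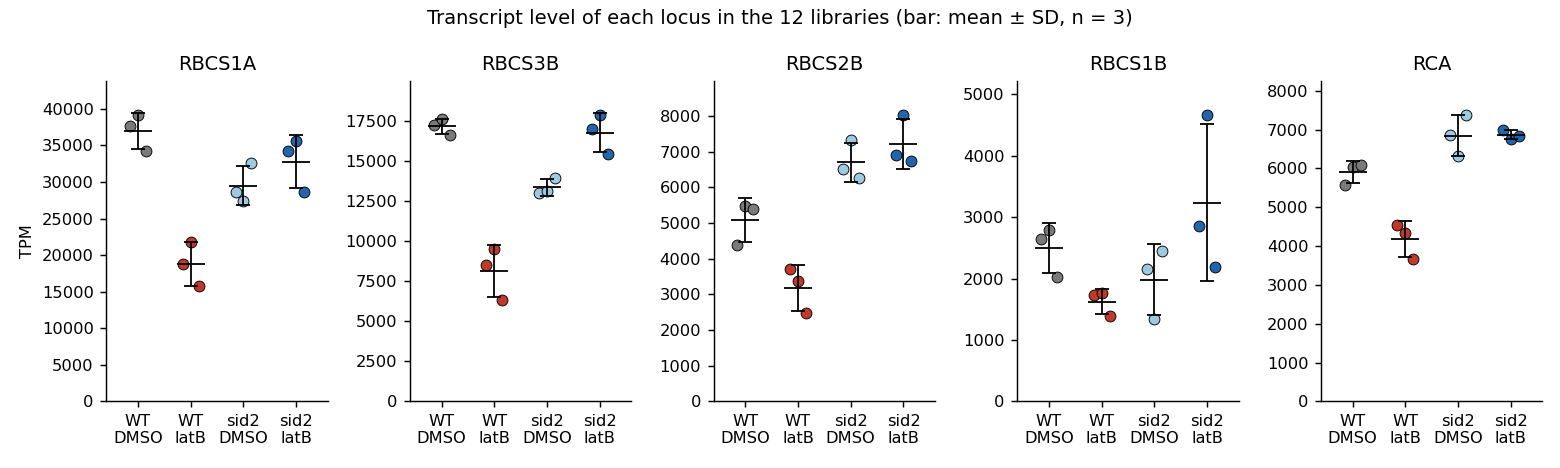
TPM of each locus (vertical axes, from 0, each with its own range) by group, with 1 point per library and a bar for the mean ± SD (n = 3). In every panel WT_latB has the lowest mean of the 4 groups, for RBCS1A 18801 TPM against 37002 in WT_DMSO.

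In WT leaves latrunculin B lowered all 5 transcripts (tests below are edgeR's quasi-likelihood test on estimated counts scaled by TMM, with Benjamini-Hochberg adjusted p over all genes and a threshold of 0.05). Over all 18149 genes tested, 22.7% were called lower in this comparison, which is the background for 5 of 5 members. RBCS3B fell to 39.5% of its WT_DMSO level, a log2 fold change of -1.34 ± 0.17 (SE) with an edgeR adjusted p of 3.38e-05. RBCS1A changed by -1.25 ± 0.18 (edgeR adjusted p 7.09e-05), RBCS2B by -0.93 ± 0.17 (edgeR adjusted p 0.000438) and RCA by -0.87 ± 0.15 (edgeR adjusted p 0.00027). RBCS1B changed by -0.89 ± 0.28 with an edgeR adjusted p of 0.0173. The call of RBCS1B was lost without WT_DMSO replicate 1, WT_DMSO replicate 2 or WT_latB replicate 3 (edgeR adjusted p 0.0593, 0.0535 and 0.0658), and with library size alone (0.0933). It was also lost with limma on log2 TPM (limma adjusted p 0.0767 to 0.12) and with glmTreat at 0.5 (0.101); the other members kept theirs under each library left out.

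The 4 copies summed per library before the fit, which avoids the division of shared reads, changed by -1.23 ± 0.18 (edgeR adjusted p 7.73e-05), or to 42.7% of WT_DMSO; 22.7% of genes in that table were called lower. The 3 B copies summed as 1 feature changed by -1.20 ± 0.17 (edgeR adjusted p 7.64e-05). Among all genes tested, 8.67% had a lower log2 fold change than RBCS3B and 17.3% a lower one than RCA. With library size as the only scaling, the median log2 fold change over all genes was 0.33 instead of -0.01, and 6818 genes were called higher and 2521 lower instead of 4012 and 4115; summed RBCS was then at -0.89. In bulk leaf RNA, fewer mesophyll cells and less transcript per cell cannot be told apart.

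In sid2 leaves 0 of the 5 loci passed the same test, against 4.73% of genes called in either direction by edgeR and 859 genes in all; 0 were under an unadjusted p of 0.05 by edgeR, and 0 passed with DESeq2. The log2 differences between sid2_latB and sid2_DMSO were -0.11 ± 0.17 for RBCS1A, 0.43 ± 0.28 for RBCS1B, -0.16 ± 0.16 for RBCS2B, 0.07 ± 0.17 for RBCS3B and -0.12 ± 0.14 for RCA, and the signs of RBCS1A, RBCS2B and RCA depend on the scaling. Summed RBCS differed by -0.04 ± 0.17 (edgeR adjusted p 0.927, with 4.74% of genes in that table called), and by 0.11 with library size alone, where 1346 genes were called higher and 127 lower instead of 640 and 219. A p above the threshold does not show that the drug left these transcripts unaffected in sid2.

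The responses of the genotypes differed. The interaction, which is the log2 response in sid2 minus that in WT, was positive and passed for 5 of 5 members, against 13.4% of all genes called in that direction. It was 1.41 ± 0.24 for RBCS3B (edgeR adjusted p 0.0013), 1.14 ± 0.25 for RBCS1A (0.00518), 1.33 ± 0.39 for RBCS1B (0.0249), 0.77 ± 0.23 for RBCS2B (0.0278) and 0.75 ± 0.20 for RCA (0.0172). Summed RBCS gave 1.19 ± 0.25 (edgeR adjusted p 0.00388; 13.4% of genes called higher in that table). RBCS1A, RBCS3B, RCA and summed RBCS kept the call whichever library was left out. RBCS1B lost it without WT_DMSO replicate 1 or 2, WT_latB replicate 3 or sid2_latB replicate 2 (edgeR adjusted p 0.0546 to 0.0699), and RBCS2B without WT_DMSO replicate 2 or 3, sid2_DMSO replicate 1, or sid2_latB replicate 1 or 2 (0.0526 to 0.0667). In the fit of coding models, the single RBCS1B model (AT5G38430.1) was not called with all 12 libraries (1.33 ± 0.43, edgeR adjusted p 0.0572). With glmTreat at 0.5 the call held for RBCS1A and RBCS3B only, and RCA was at an adjusted p of 0.186. With library size alone 1820 genes had a positive and 2975 a negative call, instead of 2436 and 1948, and RBCS2B missed the threshold (0.0502).

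Under latrunculin B, sid2 leaves held more of all 5 transcripts than WT leaves. RBCS2B was 2.48-fold higher (log2 fold change 1.31 ± 0.17, edgeR adjusted p 3.39e-05), RBCS3B 2.26-fold (1.17 ± 0.17, 0.000104), RBCS1B 2.19-fold (1.13 ± 0.28, 0.00471), RCA 2.01-fold (1.00 ± 0.15, 9.5e-05) and RBCS1A 1.92-fold (0.94 ± 0.18, 0.000671). All 5 passed, against 22.1% of genes called higher, and they did so under every alternative and every library left out. Summed RBCS was 2.09-fold higher (1.06 ± 0.18, edgeR adjusted p 0.000266, 22.1% of genes in that table). Library size alone called 2731 genes higher and 6071 lower here, instead of 4020 and 3850.

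Under DMSO 0 of 5 members passed between genotypes by edgeR, against 11.0% of genes called in either direction. RBCS2B came closest, at 0.54 ± 0.17 (1.45-fold, edgeR unadjusted p 0.00563, adjusted p 0.0505). DESeq2 called it (adjusted p 0.0111), as did upper-quartile scaling (0.049), robust hyperparameters (0.0493), a fit without organelle genes (0.0491), a fit to those 6 libraries alone (0.028) and the fits without WT_latB replicate 1 (0.0454) or replicate 3 (0.00707). RBCS2B stayed uncalled with RLE scaling, library size alone, effective-length offsets, no filter on low counts, glmTreat and limma. It also stayed uncalled with any other library left out (edgeR adjusted p up to 0.168). The other members lay at -0.20 ± 0.17 (RBCS1A), -0.20 ± 0.28 (RBCS1B), -0.23 ± 0.17 (RBCS3B) and 0.26 ± 0.14 (RCA). Summed RBCS lay at -0.13 ± 0.17 (edgeR adjusted p 0.697, 11.1% of genes in that table). The 3 B copies summed as 1 feature lay at -0.04 ± 0.17 (edgeR adjusted p 0.918). Whether the RBCS2B difference comes from the division of reads between B copies was not tested. Library size alone called 552 genes higher and 1536 lower here, instead of 810 and 1191. These comparisons share libraries with those between treatments.

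**Figure D2:**
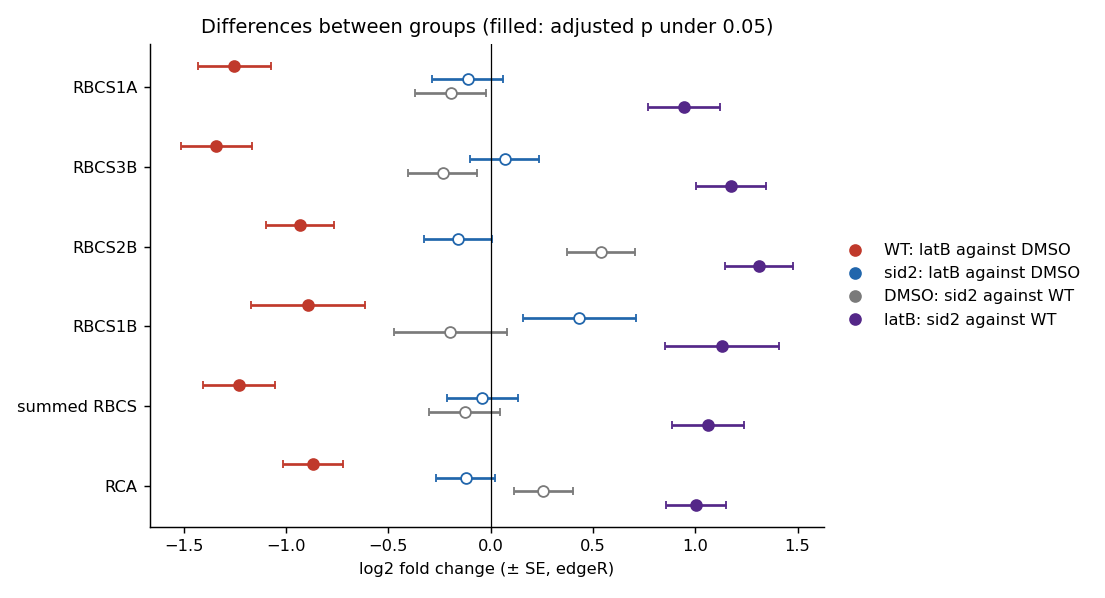
Log2 fold change (horizontal axis, ± SE from edgeR) of each RBCS copy, of summed RBCS and of RCA (rows) in 4 comparisons (colours); filled points have an adjusted p under 0.05. WT latrunculin B responses run from -1.34 to -0.87, and the sid2 responses straddle 0.

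The share of each copy in the small subunit pool was taken per library. RBCS1A made 59.9% ± 1.07 (SD, n = 3) of summed RBCS TPM in WT_DMSO, 59.3% ± 1.67 in WT_latB, 57.2% ± 1.64 in sid2_DMSO and 54.7% ± 1.27 in sid2_latB, with no overlap between WT_latB and sid2_latB. RBCS3B made 27.8%, 25.5%, 25.9% and 28.0% in the same order, with no overlap between treatments within a genotype or between genotypes within a treatment. The share of RBCS2B was 7.08%, 8.44% and 9.27% in the WT_DMSO libraries and 13.0%, 14.9% and 11.3% in the sid2_DMSO libraries, without overlap, and 9.26% to 11.4% in WT_latB and 11.3% to 12.7% in sid2_latB. RBCS1B ranged from 2.73% in a sid2_DMSO library to 7.05% in a sid2_latB library.

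Changes of share were tested over 4689 coding models of 2172 units, the RBCS copies being 1 unit, with diffSpliceDGE in edgeR. Over all models, 0 passed in 4 of the comparisons and 14 (0.299%) in the interaction. Of the members' models 0 passed in any comparison, and 1 was under an unadjusted p of 0.05, RBCS2B between genotypes under DMSO (log2 usage 0.67, p 0.018, edgeR adjusted p 0.777). The test recovered almost none of the changes planted in simulated libraries, so these misses carry little information. A limma test on log2 odds, added after seeing the data, gave 0.75 ± 0.17 for RBCS2B (p 0.00135, limma adjusted p 0.274) and also called 0 member models, and in simulated libraries it missed the smaller planted changes. An exact two-sided permutation test of 3 against 3 libraries cannot go below p = 0.1. The RBCS1A share differed by -4.66 percentage points between sid2_latB and WT_latB at that smallest p (0.229 adjusted over 16 tests). RBCS3B reached it too, by -2.32 points in WT, 2.09 in sid2, -1.89 between genotypes under DMSO and 2.52 under latrunculin B. So did RBCS1B in WT (1.13) and RBCS2B between genotypes under DMSO (4.81). The activase models RCA.1 and RCA.2 did so in WT and between genotypes under latrunculin B. Adjusted p was 0.218 over 24 tests of shares, and in the remaining tests the groups overlapped.

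The activase gene gave essentially 2 transcripts. Model RCA.1, with a frame of 1425 bases, made 80.0% ± 0.815 of RCA TPM in WT_DMSO, 82.0% ± 0.775 in WT_latB, 80.9% ± 2.65 in sid2_DMSO and 78.8% ± 0.740 in sid2_latB. RCA.2, with 1341 bases, made nearly all of the rest, and RCA.3 stayed at 0.101% or less. The models part at the end of the sixth coding exon (chr2:16571161-16571210, minus strand, TAIR10.1), where RCA.2 runs 11 bases further before its splice site; the sequences are shown because the choice between these 2 sites sets the protein's tail, and capitals mark exon bases.
RCA.1: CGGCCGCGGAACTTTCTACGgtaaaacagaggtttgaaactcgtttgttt
RCA.2: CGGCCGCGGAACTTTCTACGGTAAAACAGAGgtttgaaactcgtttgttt
The shift of frame brings RCA.2 to a stop codon after 21 coding bases of the last exon (chr2:16571046-16571066), while RCA.1 reads through 116 (chr2:16570951-16571066).
RCA.1: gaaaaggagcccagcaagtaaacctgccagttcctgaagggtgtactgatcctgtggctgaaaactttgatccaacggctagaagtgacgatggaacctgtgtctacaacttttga
RCA.2: gaaaaggagcccagcaagtaa

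Both activase models fell in WT leaves. RCA.1 was at 4494, 4856 and 4827 TPM in WT_DMSO, 3711, 3595 and 2984 in WT_latB, 5495, 4972 and 6180 in sid2_DMSO and 5531, 5362 and 5329 in sid2_latB. RCA.2 was at 1082, 1174 and 1272 TPM in WT_DMSO, 835, 739 and 670 in WT_latB, 1353, 1336 and 1184 in sid2_DMSO and 1450, 1400 and 1504 in sid2_latB. For both models WT_latB lay below every other library. The WT response was -0.84 ± 0.14 for RCA.1 (edgeR adjusted p 0.000873) and -0.99 ± 0.12 for RCA.2 (0.000164), where 18.0% of 20637 coding models were called lower. The interaction was 0.68 ± 0.19 for RCA.1 (edgeR adjusted p 0.0338) and 1.03 ± 0.17 for RCA.2 (0.00376), with 9.47% of models called higher, and between genotypes under latrunculin B the differences were 0.95 ± 0.14 and 1.21 ± 0.12, with 17.4% called higher. Neither model passed in sid2 (2.01% of models called) or between genotypes under DMSO (6.25%).

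The first-listed models of RBCS1A and RBCS3B, with those of RBCS2B and RBCS1B which have 1 each, carried the small subunit signal. All 10 coding models entered the test. AT1G67090.2 reached at most 2.98 TPM, AT5G38410.2 at most 4.88, AT5G38410.3 at most 9.49 and the third activase model at most 7.07 in any library. Of these 4, 1 passed in 1 comparison, the third activase model between genotypes under latrunculin B (2.05 ± 0.69, edgeR adjusted p 0.0403). In that comparison 17.4% of 20637 coding models were called higher. The third activase model was at 0.288 to 2.32 TPM in WT_latB, with 10.4 estimated reads in replicate 2, and 2.76 to 7.07 TPM in sid2_latB.

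**Figure D3:**
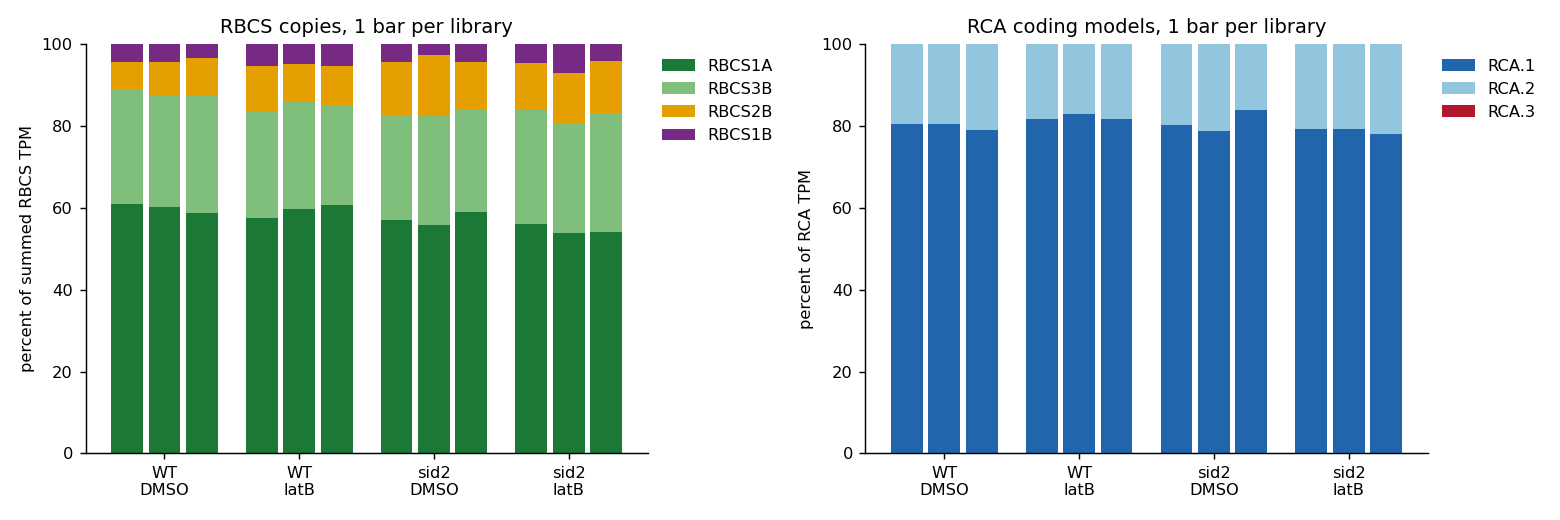
Share of each RBCS copy in summed RBCS TPM (left) and of each coding model in RCA TPM (right), in percent, with 1 bar per library and 3 bars per group. RBCS1A holds 53.9% to 60.8% of the pool and RCA.1 77.9% to 83.9% of activase.

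The ratio of activase to small subunit transcripts was set out per library. The log2 ratio of RCA to summed RBCS TPM was -3.47, -3.43 and -3.26 in WT_DMSO and -2.85, -3.07 and -2.83 in WT_latB, a difference of 0.47 with no overlap (exact permutation p = 0.1, the smallest possible, 0.229 adjusted over 16 tests). In sid2_DMSO it was -2.87, -2.96 and -2.91, also 0.47 above WT_DMSO, and in sid2_latB -3.12, -3.29 and -2.95. The large subunit transcript rbcL (ATCG00490, identified by its coding length of 1440 bases, which 1 plastid gene in the annotation has) was listed at only 29.0 to 72.0 TPM, and the labels do not say how messenger RNA was selected. Its edgeR log2 fold change in WT was -0.13 ± 0.29 (adjusted p 0.75). Log2 rbcL to summed RBCS was -10.02, -10.86 and -10.97 in WT_DMSO and -9.27, -9.93 and -8.75 in WT_latB, 1.3 higher without overlap at the same smallest exact permutation p.

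Most of the nuclear genes listed as serving Rubisco fell in WT leaves, as did the RBCS and RCA transcripts. The rbcL transcript was not called (-0.13 ± 0.29, edgeR adjusted p 0.75), which does not show that it was unchanged. The lists were drawn up with earlier results of these data known, and their counts stand beside the 22.7% of all genes called lower and a median log2 fold change of -0.01 over all genes. Of 15 folding and assembly genes 12 fell and 0 rose (median -1.27). Among them were AT3G47650, annotated as a DnaJ/Hsp40 cysteine-rich protein (-1.28 ± 0.17), AT5G28500 and AT3G04550, both annotated as Rubisco accumulation factor-like (-1.31 ± 0.21 and -1.30 ± 0.21), RbcX1 (-1.46 ± 0.24) and the chaperonin subunit Cpn60beta4 (-1.33 ± 0.22), with edgeR adjusted p of 3.8e-05 to 0.000272. In sid2 leaves 1 of the 15 fell, RbcX1 (-1.08 ± 0.23, edgeR adjusted p 0.0183), and 0 rose, a share near the 4.73% of all genes called in sid2; the interaction was positive and called for 9, against 13.4% of all genes.

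All 5 genes listed under repair of sugar phosphates or upkeep of the large subunit fell in WT (median -1.23). The list name is not a role tested here. In sid2 0 of 5 passed by edgeR, against 4.73% of all genes called in either direction. The 2 under an unadjusted edgeR p of 0.05 were lower under latrunculin B, AT4G39970 (-0.38) and AT5G22620 (-0.30). In WT LSMT-L, a lysine methyltransferase-like protein, changed by -1.28 ± 0.15, the HAD-superfamily gene AT4G39970 by -1.23 ± 0.17 and AT3G48420 by -1.32 ± 0.18. There AT5G22620 changed by -0.48 ± 0.12 and MRL1, needed for the rbcL transcript, by -0.72 ± 0.20 (edgeR adjusted p up to 0.00862 for all 5). The interaction was positive and called for 4 of them, against the same 13.4%.

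Of 16 genes for import and processing of chloroplast precursors 11 fell and 0 rose in WT (median -0.55). TOC33, a receptor at the outer envelope that favours photosynthetic precursors, fell from 41.1 to 13.0 CPM (-1.66 ± 0.18), and the receptor TOC159 changed by -0.65 ± 0.12. The stromal chaperone cpHsc70-1 (-0.94 ± 0.15) and the inner-envelope components TIC40 (-0.69 ± 0.11) and TIC56 (-0.93 ± 0.16) also fell, with edgeR adjusted p up to 0.000534 for these 5. In sid2 0 of the 16 passed by edgeR, against 4.73% of all genes called in either direction. The 5 under an unadjusted edgeR p of 0.05 were all higher under latrunculin B (log2 fold change 0.28 to 0.70). The interaction was called for 10 of the 16, all positive, again against 13.4% of all genes.

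Of 13 transcription factors of photosynthesis genes 7 fell and 2 rose in WT (median -0.65), against 22.7% of all genes called lower and 22.1% called higher, so the count of risers was no larger than that background. GLK2, an activator of chloroplast genes, fell (-1.12 ± 0.14), as did PIL5 (-0.85 ± 0.13), also known as PIF1, and GNC, a GATA factor that promotes greening (-0.93 ± 0.22). HYH, a homologue of the light-signalling factor HY5, rose (2.71 ± 0.32, from 4.42 to 29.0 CPM), and so did GBF3, a G-box binding factor (1.22 ± 0.16); edgeR adjusted p was at most 0.00326 for these 5. In sid2 1 of 13 fell, GBF2 (-1.26 ± 0.32, edgeR adjusted p 0.04), against 4.73% of all genes called in either direction. The interaction was mixed in this list, called positive for 3 of the 13 and negative for 2. Over all 18149 genes, 2436 were called positive and 1948 negative. Between genotypes under DMSO 1 list gene was higher in sid2, GLK1 (0.56 ± 0.15, edgeR adjusted p 0.0302; GPRI1 in the annotation), and 1 was lower, TOC75-III (-0.70 ± 0.19, 0.0281), a smaller share of the 50 listed genes than the 11.0% called over all genes.

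**Figure D4:**
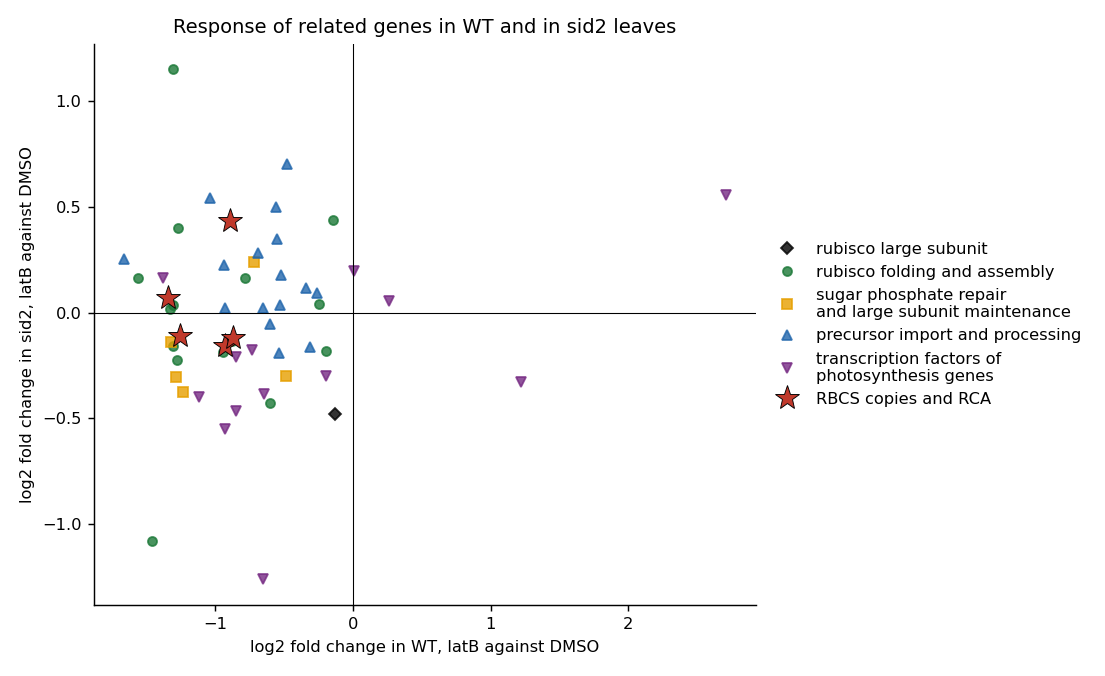
Log2 fold change under latrunculin B in WT (horizontal) and in sid2 (vertical) for the 50 listed genes and, as stars, the 5 members, all from edgeR. Most listed genes lie left of 0 on the WT axis, while their sid2 values spread on both sides of 0.

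The upstream sequences of the members were searched for light-element motifs on both strands: G-box CACGTG, I-box GATAAG, a GT1 core GGTTAA, the evening element AAAATATCT and CCAAT. Within 250 bases before the annotated gene start only RBCS2B held a G-box, against 6.6% of 26635 genes, and RBCS2B and RCA held an I-box, against 12.25%. Annotated starts lie at very different distances from the reading frame, so the 600 bases before the start codon were searched too, a window added after seeing the data. A G-box then occurred in 4 of the 5 members (10.69% of all genes) and an I-box in 5 (27.03%); a GT1 core occurred in 4 (28.82%), CCAAT in 4 (74.24%) and the evening element in 0 (4.843%). The G-box sites of this window are shown because 4 of the 5 members hold one, with the motif in capitals, on the minus strand of TAIR10.1. Whether a G-box goes with the fall in WT leaves was not tested.
RBCS1A (chr1:25049493-25049518): aattatcttcCACGTGgcattattcc
RBCS2B (chr5:15382179-15382204): agttttctgcCACGTGatcttatcct
RBCS3B (chr5:15378508-15378533): agttttctgcCACGTGgccttatcct
RCA (chr2:16573581-16573606): aaacatattcCACGTGgaccaatcaa
They begin 259, 216, 217 and 251 bases before the start codon, and in RBCS1A, RBCS3B and RCA that is inside the annotated 5′ UTR. RBCS1B, which held no G-box in this window, had 2 I-boxes that overlap, beginning 170 and 165 bases before its start codon.
RBCS1B (chr5:15385310-15385335): acaaaagaaaGATAAGataagggtgt
A match describes letters and says nothing of which factor binds there.

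**Figure D5:**
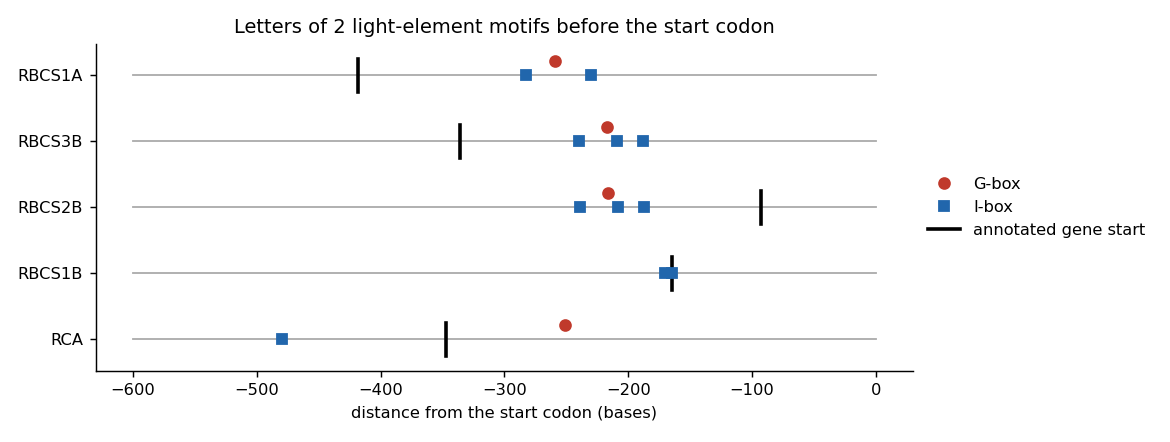
Position of G-box (circles, raised for legibility) and I-box (squares) letters on either strand in the 600 bases before the start codon of each member (horizontal axis, bases from the start codon); the black bar is the annotated gene start. The G-boxes of 4 members lie 216 to 259 bases before the start codon.

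Over the 12 libraries the pattern of summed RBCS, as log2 CPM, was most like that of PPOX, a protoporphyrinogen oxidase of tetrapyrrole synthesis (Pearson r = 0.997), followed by EMB3129, AT1G52510, AT5G52970 and AT5G53490 (r = 0.990 to 0.992), among the 11088 genes whose mean log2 CPM reached 3. RCA was most like AT5G21222, the chloroplast sensor kinase CSK, PTAC5, GPX1 and AT5G04810 (r = 0.989 to 0.992). Summed RBCS and RCA themselves had r = 0.937. The 12 points form 4 groups, and WT_latB stands apart in each of these patterns, so these values are descriptions without a test.

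Markers of leaf cell types did not all move in the direction of the members. The summed TPM of the 5 mesophyll markers was 25523 to 26539 in WT_DMSO, 12140 to 16573 in WT_latB, 28536 to 31779 in sid2_DMSO and 26219 to 27732 in sid2_latB. The 5 guard cell markers summed to 37.8 to 53.6 TPM in WT_latB and 10.9 to 21.0 in the other libraries, with KAT1 averaging 42.2 TPM in WT_latB against 6.84 in WT_DMSO, while FAMA, MYB60, SLAC1 and HT1 averaged less in WT_latB. The 4 phloem markers summed to 300.1 to 356 TPM in WT_latB against 182 to 268 in WT_DMSO, and to 361 to 376 in sid2_DMSO. The 7 epidermis markers summed to 88.9 to 142 TPM in WT_latB and 123 to 217 in the other libraries, with PDF1 at 0 in WT_latB, and the 3 bundle sheath markers overlapped between WT_latB and WT_DMSO. The part of cell-type makeup in the changes of RBCS and RCA was not tested.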

How the data were processed

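Per the submitters' processing notes, the authors trimmed reads with Trimmomatic and used Salmon 1.3.0 against TAIR10 to quantify them. Each of 12 deposited tables lists, per the file headers, an estimated count and a TPM value for 32875 models, whose lengths are those of coding sequence (99.99% are multiples of 3). RNA came from infiltrated rosette leaves and libraries from the NEBNext Ultra II Directional kit, per the labels' protocols. Other values in the deposited tables, length and effective length, served as offsets in 1 alternative.

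Estimated counts were summed per locus and rounded. Genes passing filterByExpr (18149) were scaled by TMM and fitted with edgeR 4.0.16 (R 4.3.3, glmQLFit, common biological coefficient of variation 0.211) over the 12 libraries with a mean per group; p-values were adjusted by Benjamini-Hochberg over all genes, threshold 0.05. The 4 RBCS loci were also fitted as 1 sum, and coding models on their own. Alternatives used DESeq2 1.42.0 and limma 3.58.1 on log2(TPM + 1) or log2(TPM + 0.1), other scalings (RLE, upper-quartile, library size alone, effective-length offsets), no filter on low counts, robust hyperparameters, glmTreat, organelle genes left out, the 6 libraries of a comparison alone and each library left out. The members and lists were chosen with earlier results of these data known. Named genes are the members and their models, the 5 genes most like summed RBCS and RCA, and up to 5 passing genes per list by smallest adjusted p. Others, named for small counts, were chosen after their values were seen. Tests were tried on simulated data with planted changes. Reference sequences and symbols are from RefSeq TAIR10.1; for 96.4% of the models whose locus is annotated there, the coding length was found at that locus. Depth ran from 14506962 to 22449387 estimated reads per library, and intervals and SEs do not include the error of dividing reads between copies.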

Additional observations from a re-analysis of the deposited data

Results flagged for a closer look

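By the interaction term of edgeR (log2 response in sid2 minus that in WT), the latrunculin B response was not the same in both genotypes for all 5 members: 1.14 for RBCS1A, 1.33 for RBCS1B, 0.77 for RBCS2B, 1.41 for RBCS3B and 0.75 for RCA. Summed RBCS gave 1.19, and the activase models gave 0.68 (RCA.1, AT2G39730.1) and 1.03 (RCA.2, AT2G39730.2).

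Among the named list genes the same term was 1.34 for Cpn60beta4 (AT1G26230), 1.15 for AT5G28500, 1.34 for AT3G04550 and 1.06 for AT3G47650. It was 1.18 for AT3G48420, 0.86 for AT4G39970, 0.98 for LSMT-L (AT1G14030) and 0.96 for MRL1 (AT4G34830). Import genes gave 0.67 for TOC159 (AT4G02510), 1.92 for TOC33 (AT1G02280), 0.97 for TIC40 (AT5G16620), 0.95 for TIC56 (AT5G01590) and 1.16 for cpHsc70-1 (AT4G24280). Of the transcription factors, HYH (AT3G17609) gave -2.15 and GBF3 (AT2G46270) -1.55, and GLK2 (AT5G44190) gave 0.72 and PIL5 (AT2G20180) 0.64.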

How the results depend on the processing

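No paired analysis was possible because the labels give no shared replicate numbers. In WT, summed RBCS (-1.31 to -0.89) and RCA (-0.95 to -0.50) kept direction and call under every alternative. Called counts of members between genotypes under DMSO were 1 with upper-quartile scaling, robust hyperparameters, organelle genes left out, DESeq2 or those 6 libraries alone. They were 0 to 1 with a library left out, and the member called was RBCS2B each time. On simulated data DESeq2 made more false calls than edgeR. Those data were drawn from edgeR's own estimates of scaling and spread, so they cannot decide between the methods here. For the interaction the count was 2 with glmTreat at 0.5, 3 with limma on unfiltered TPM and 3 to 5 with a library left out; RCA missed the threshold there at 0.75 (glmTreat) and 0.51 (unfiltered TPM), as did summed RBCS at 1.19 (unfiltered TPM); the cause was not tested. Uncalled values of the sid2 response changed sign: summed RBCS was 0.11 with library size alone, 0.10 with effective-length offsets, 0.22 in the 3 limma fits and -0.097 to 0.046 with a library left out; RBCS1A was 0.036, 0.036 and 0.15 in those settings; RBCS2B was 0.11 in the limma fits; RCA was 0.028 with library size alone and 0.0069 in the limma fits. Without 1 library, RBCS1B between genotypes under DMSO ran from -0.43 to 0.036, the RBCS1A share in WT from -1.28 to 0.33 points, and the RCA.1 share between genotypes under DMSO from -0.58 to 1.99 points. Over all genes, calls in sid2 were 859, but 1607 with DESeq2, 1473 with library size alone, 206 with glmTreat, 358 with 6 libraries alone and 369 (without sid2_latB replicate 1) to 1472 (without sid2_DMSO replicate 3) with a library left out; glmTreat gave 4529 in WT against 8127, 2053 for the interaction against 4384, 463 and 4340 between genotypes under DMSO and latrunculin B against 2001 and 7870, and under DMSO 6 libraries alone gave 1044, and leaving a library out 1035 (WT_DMSO replicate 1) to 2347. diffSpliceDGE with another dispersion method, looked at after seeing the data, called 0 to 36 models and none of the members. Arms left with 2 libraries are assumed to vary like the other groups. The error of dividing reads between B copies was not measured.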
